A study of Mus musculus with 8 samples.

Results

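The step described here is the middle day of a differentiation course, from Day 1 to Day 2, in primary mouse oligodendrocyte precursor cells (OPCs), the dividing progenitors that become oligodendrocytes (OLs). The 2 Day 2 libraries were compared with the 2 Day 1 libraries, which are 4 of the 8 libraries of the series, over the 12208 of 23427 listed genes whose FPKM was 1 or more in 2 or more of the 8 libraries. FPKM is a library's sequenced fragments on a transcript, scaled to the transcript's length and to the library's mapped total. The cells were wild type (WT) C57BL/6J, taken by immunopanning with an antibody against PDGFRα from the cortex of 3 pups at postnatal day 7, and no group carried an allele that another lacked. PDGF-AA, the mitogen that keeps OPCs dividing, was withdrawn and the thyroid hormone T3 was added at Day 0, so that Day 1 and Day 2 shared this treatment and differed in its duration. The study profiled Day 0, Day 1, Day 2 and Day 3, with 2 replicates a day that its methods call independent. It did so to check the expression of candidate RNA-binding proteins of the OL lineage, which it had found in public datasets. Animals were pooled, the sexes are not stated, and the labels and the methods name different culture media and RNA kits.

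OLs wrap axons in myelin, a stack of plasma membrane that is held together by a small set of abundant proteins (such as *Mbp* and *Cldn11*) and is rich in cholesterol and galactolipids. OPCs that leave the cell cycle pass through a committed, premyelinating state before they make these components in bulk. Transcription factors such as *Sox10*, *Olig2* and *Myrf* drive the myelin genes, while Id, Hes and Notch proteins hold them back.

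Read totals were not used here, and depth was inferred from the spacing of low values at 1210000 to 1320000 fragments for the 4 libraries of Day 1 and Day 2, against 950000 to 1530000 over the series. OL lineage markers were present in all of these 4 libraries: *Sox10* lay between 476 and 579 FPKM and *Cnp* between 1082 and 2459. The OPC markers *Pdgfra* and *Pcdh15* were already low on Day 1 relative to Day 0, and *Cspg4* did not exceed 5.06 FPKM. *Ptprz1*, another OPC marker, was higher than these on Day 1 (values below). The list of progenitor identity summed to 4522 and 4611 FPKM on Day 0. It still stood at 2686 and 2370 on Day 1 and at 1903 and 1771 on Day 2. The 9 astrocyte markers, in contrast, differed between the replicates: their summed FPKM was 174 and 135 in replicate 1 of Day 1 and Day 2, and 534 and 655 in replicate 2. *Gfap* alone was at 30.4 and 27.3 FPKM in replicate 1 and at 317 and 409 in replicate 2. None of the 9 passed the limma test from Day 1 to Day 2, with 0 at an unadjusted p under 0.05. With the replicate number as a block 1 did, *Aqp4*, at 0.802 and 28.8 FPKM and then 2.58 and 59.7, and the part of astrocyte RNA in the results below was not tested. Neuron markers summed to 79.7 and 40.2 FPKM on Day 1 and to 131 and 60.0 on Day 2 (*Tubb3* passed with the block), and those of microglia, endothelial and mural cells to at most 2.2 in these libraries. In such bulk cultures, fewer cells of a type and less RNA per cell cannot be told apart.

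From Day 1 to Day 2, 264 genes rose and 211 fell (limma on log2(FPKM + 1), adjusted p under 0.05), which is 2.16% and 1.73% of the genes tested. The rises had a median log2 fold change of 1.36 and ranged from 0.58 to 3.98, and the falls had a median of -1.19 and ranged from -0.59 to -3.21. Among the rises, 241 had a Day 2 mean of at least 10 FPKM. The median of all genes was -0.19, and the balance of calls changed with the scaling: with median ratio scaling, where the median was -0.02, 371 genes rose and 104 fell, and quantile normalization gave 296 and 131. With the replicate number as a block, 367 rose and 436 fell, among them all 475 genes called without it. Leaving out 1 library moved the counts strongly, since each day has 2. Without Day 2 replicate 2, 11 genes rose and 0 fell, and without Day 1 replicate 1, 52 rose and 8 fell. The counts were 134 and 54 without Day 1 replicate 2, 140 and 101 without Day 2 replicate 1, and 110 and 28 or 110 and 26 without Day 0 replicate 1 or 2. In all 4 fits that left out a library of Day 1 or Day 2, 10 rises passed, namely *Plekha1*, *Cerk*, *Fam13c*, *Kndc1*, *Mbp*, *Plekhg1*, *Reep5*, *Rras2*, *Secisbp2l* and *Tppp*, and 0 falls did, so that every other call named below was lost in at least 1 of these fits. In the 475 called genes both libraries of Day 2 lay outside the range of Day 1, as did 15.4% of all genes tested above it and 37.6% below it.

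**Figure D1:**
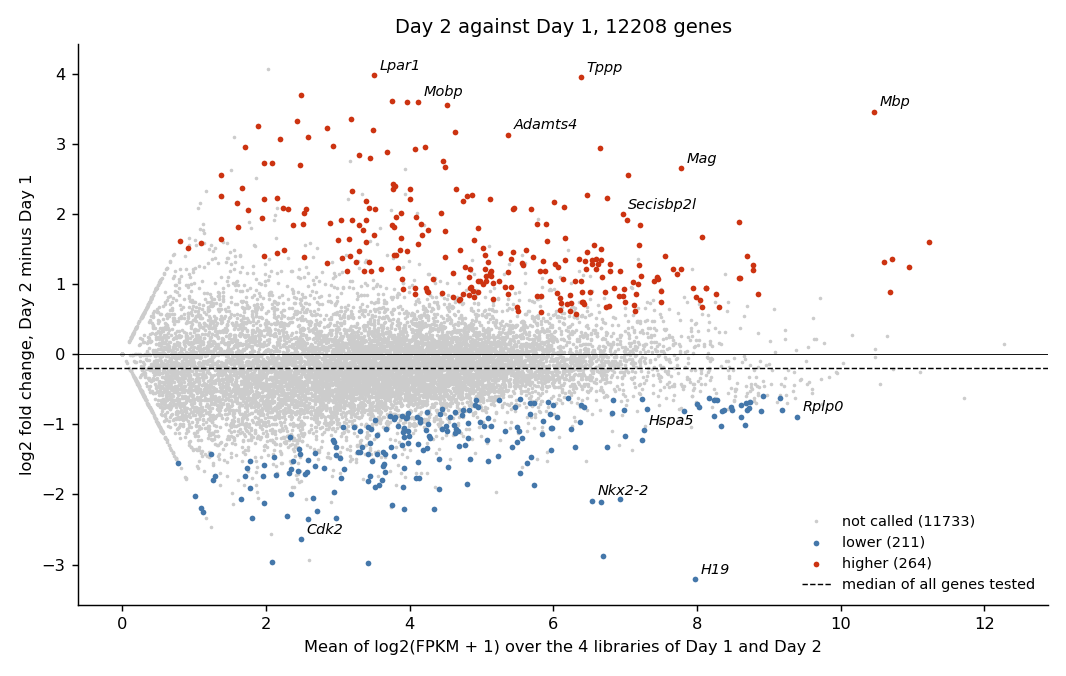
Each point is 1 of the 12208 genes tested, with its mean log2(FPKM + 1) over the 4 libraries of Day 1 and Day 2 on the x axis and its log2 fold change on the y axis. The 264 genes called higher (red) include the most abundant myelin genes, the 211 called lower (blue) reach -3.21, and the dashed median of all genes lies at -0.19.

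The step had been singled out as the one in which most myelin mRNA is gained, which held for compact myelin on the fold scale and not in FPKM. The 8 genes of the compact myelin list summed to 2807 and 2945 FPKM in the libraries of Day 1 and to 9886 and 13643 on Day 2, after 1359 and 962 on Day 0 and before 18945 and 25903 on Day 3. The sum thus grew 4.09-fold in the means over the middle step (3.52-fold in replicate 1 and 4.63-fold in replicate 2), more than the 2.48-fold of the first and the 1.91-fold of the last step. In FPKM, however, the middle step brought 8888.5 of the 21263.8 gained from Day 0 to Day 3, or 41.8%, the first step 8.07% and the last 50.1%. The last step brought more than the middle one in both replicates, 9059.4 against 7079.2 FPKM in replicate 1 and 12260.5 against 10697.8 in replicate 2. The middle share rested on single libraries, at 50.6% without Day 2 replicate 1 and 33.0% without Day 2 replicate 2. These sums were not tested, and an exact permutation test of 2 against 2 libraries could not go below p = 0.33.

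Other classes of myelin mRNA differed in timing. The myelin cytoskeleton list, whose sum went from 3623 and 5236 FPKM on Day 1 to 8670 and 10023 on Day 2, made 63.0% of its Day 0 to Day 3 gain in the middle step and 2.08% in the last. Its last step differed in sign between the replicates, with 890.2 FPKM in replicate 1 and -565.0 in replicate 2. The sum is weighted to abundant genes. *Tubb4a*, *Sirt2* and *Cnp* gained 1743.3, 1613.5 and 1041.6 of the 4917.4 FPKM of the middle step. In the last step they changed by -511.9, -421.2 and -204.3. Other members gained most in the last step, such as *Ermn* and *Sept4*, or in the middle one, such as *Tppp* and *Bin1*. The galactolipid and sphingolipid enzymes made 54.4% of theirs in the middle step, from 1290 and 1423 to 2108 and 2419 FPKM. For the surface and adhesion proteins the middle share was 34.3%, and for the enzymes and secreted proteins of mature OLs it was 21.8%, with 54.8% in the last step. Of the 42 genes tested in the 3 lists of myelin proteins, 13 had their largest gain in FPKM in the middle step, 4 in the first and 24 in the last, and 1, *Sept8*, gained in none. On the log2 scale the largest change, up or down, lay in the middle step for 15, in the first for 18 and in the last for 9.

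**Figure D2:**
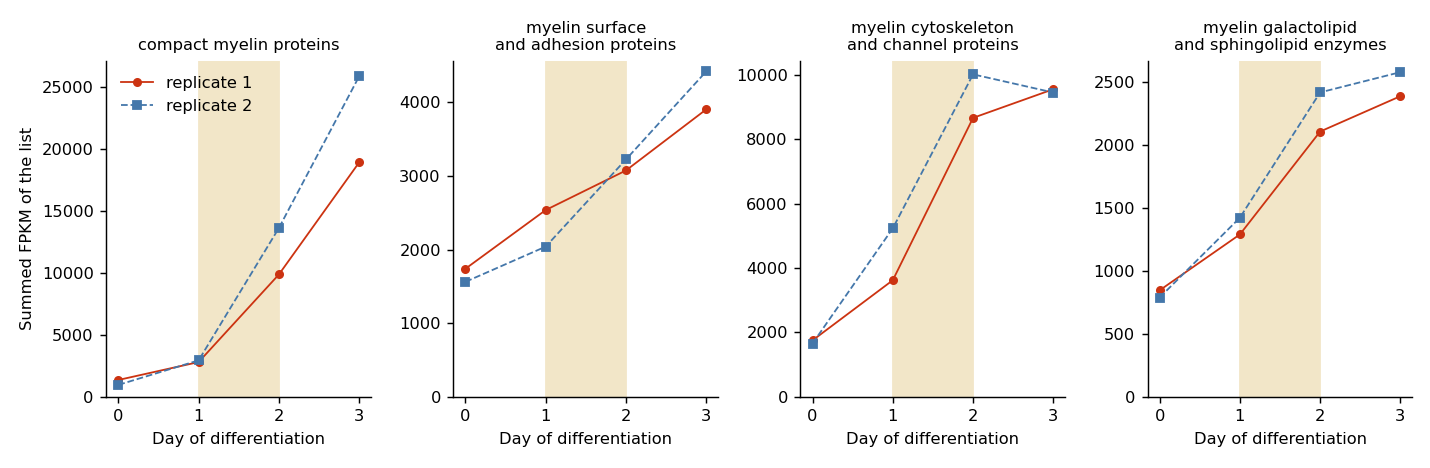
Summed FPKM of 4 gene lists (y axis, from 0) on each day (x axis), a line for each replicate number, with the step from Day 1 to Day 2 shaded. The cytoskeleton and galactolipid sums climbed steeply in the shaded step and flattened after it, while the compact myelin sum went on rising to 18945 and 25903 FPKM on Day 3.

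Of the 8 compact myelin genes, 5 rose, 0 fell and 3 did not pass, and their median log2 fold change was 1.46 against -0.19 for all genes. *Mbp*, the basic protein that draws the cytoplasmic faces of myelin together, stood at 344 and 530 FPKM on Day 1 and at 3499 and 6328 on Day 2. Both Day 2 libraries lay far above both of Day 1, and the means differed 11.2-fold (log2 fold change 3.46, SE 0.32, adjusted p = 0.0033). *Cldn11*, which forms the tight junctions of the sheath, went from 1125 and 868 FPKM to 2415 and 2514, and the tetraspanin *Tspan2* from 29.8 and 28.7 to 66.2 and 81.8. Both passed with log2 fold changes of 1.32 and 1.30. *Mobp* (chr9:120149707-120181484 on GRCm38, plus strand), a basic protein of mature myelin, was at 7.18 and 2.02 FPKM on Day 1 and at 35.3 and 99.1 on Day 2. Its log2 fold change of 3.6 had the widest SE of the called members, 0.71, and it passed in none of the 4 fits that left out a library of these days. By Day 3 it had reached a mean of 830 FPKM. *Mal*, *Pllp* and *Pmp22* did not pass: *Mal* was at 0 and 0.3 FPKM and then at 3.55 and 1.73, *Pllp* at 12.5 and 30.6 and then at 15.2 and 60.4, and *Pmp22*, which marks peripheral myelin, at 8.6 and 3.91 and then at 3.19 and 4.59.

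Among the surface and adhesion proteins of myelin, 6 of the 15 tested rose and 1 fell (7 and 1 with the replicate block), with a median log2 fold change of 0.94. *Lpar1* (chr4:58435255-58553898, minus strand), a receptor for lysophosphatidic acid, had the largest rise of all called genes. It was at 1.46 and 2.33 FPKM on Day 1 and at 28.8 and 67.0 on Day 2 (log2 fold change 3.98, SE 0.45, adjusted p = 0.00693), and its means were 47.9 FPKM on Day 2 and 65.2 on Day 3. *Mag*, the sialic acid-binding adhesion protein of the inner myelin surface, went from 62.5 and 121 to 404 and 748 FPKM (2.65, SE 0.38, adjusted p = 0.0141). *Nfasc*, whose glial form sits at the paranode, went from 159 and 249 to 658 and 828, and *Mog*, a protein of the outermost myelin surface, from 11.5 and 11 to 41.8 and 38.7, with log2 fold changes of 1.89 and 1.75. The orphan receptor *Gpr37*, which restrains OL maturation, rose as well (2.43, SE 0.37), from 6.36 and 3.66 to 24.6 and 37.7 FPKM. The member that fell was *Omg*, a GPI-anchored inhibitor of neurite growth, from 94.1 and 85.0 to 48.3 and 37.8 FPKM (-1.05, SE 0.16, adjusted p = 0.0174).

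The list of myelin cytoskeleton and channel proteins had 8 rises and 1 fall among 20 genes, with a median of 0.75. *Tppp* (chr13:74009407-74035753, plus strand), which promotes the polymerisation of tubulin in OL processes, had the second largest rise of all called genes, from 29.5 and 13.8 FPKM on Day 1 to 280 and 383 on Day 2 (log2 fold change 3.95, SE 0.31, adjusted p = 0.0033). It rose in each fit that left out a library of these days, by 3.43 to 4.47. *Tubb4a*, the tubulin of myelinating cells, went from 992 and 1657 to 2786 and 3348 FPKM, and *Sirt2*, a deacetylase of tubulin that is abundant in myelin, from 782 and 1416 to 2585 and 2840. These 2 genes changed less on the log2 scale, by 1.25 and 1.36, but gained 1743.3 and 1613.5 FPKM in the means, more than *Cnp* or *Cldn11*. *Cnp*, the enzyme that keeps cytoplasmic channels open in myelin, went from 1082 and 1365 to 2072 and 2459 FPKM (0.89, SE 0.18, adjusted p = 0.0369), with a Day 3 mean of 2061. Exons of *Cnp* overlap those of *Dnajc7* on the other strand, and whether strand was used in counting is not stated. The septin *Sept4* rose from 7.48 and 5.26 to 34.1 and 23.9 FPKM (2.02, SE 0.24), as did the membrane-bending protein *Bin1* (1.33) and the kinesin adaptor *Fez1* (0.83). *Sept8*, another septin of the myelin scaffold, fell from 88.4 and 112 to 48.0 and 30.5 FPKM (-1.36, SE 0.25, adjusted p = 0.0294).

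**Figure D3:**
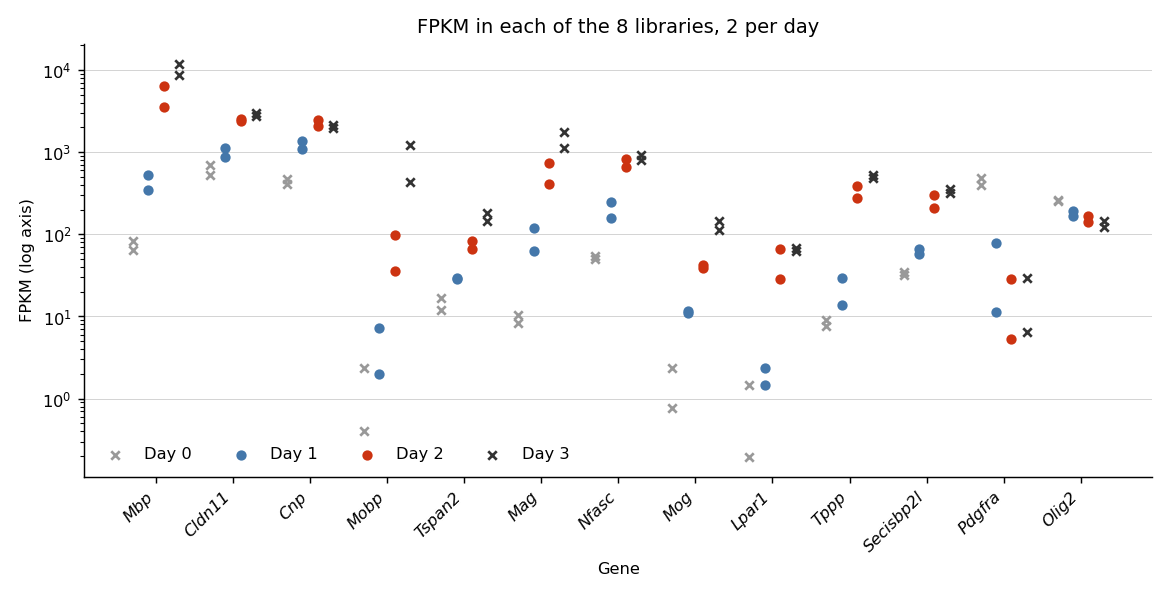
FPKM (log axis) of 13 genes of myelin, of the OL lineage or of the study in each of the 8 libraries, with Day 1 in blue, Day 2 in red, Day 0 and Day 3 as crosses. In the 11 genes from *Mbp* to *Secisbp2l* the red points lie above the blue ones, whereas those of *Pdgfra* overlap and those of *Olig2* lie just below.

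Of the enzymes and secreted proteins of mature OLs, 3 of 22 rose and 0 fell. *Adamts4*, a protease of the extracellular matrix that marks mature OLs, went from 15.3 and 11.1 FPKM to 94.1 and 157 (3.13, SE 0.33, adjusted p = 0.00512). Exons of *Adamts4* overlap those of another gene on the other strand. *Tmem98*, a membrane protein that binds *Myrf*, went from 5.85 and 8.98 to 46.6 and 115 (3.17, SE 0.38), and the transmembrane protein *Tmem125* from 0.438 and 0 to 6.17 and 17.3 (3.26, SE 0.45). Classical late genes had low values in both groups and did not pass, such as *Klk6* at 0 and 0 and then 0.658 and 0.602 FPKM, and *Car2* at 0 and 0.437 and then 1.83 and 4.62. *Aspa* and 3 other members were too low to be tested. Transferrin (*Trf*), an iron carrier of OLs, was at 19.9 and 38.9 FPKM on Day 1 and at 45.4 and 128 on Day 2, without overlap, and did not pass either (adjusted p = 0.213).

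Among the enzymes of galactolipids and sphingolipids, 4 of 18 rose and 0 fell, with a median of 0.14 (*Cers4* fell with the block). *Gltp*, which transfers glycolipids between membranes, went from 255 and 313 to 619 and 756 FPKM (1.27, SE 0.15, adjusted p = 0.00844). *Ugt8a*, the enzyme that makes galactosylceramide, went from 292 and 402 to 572 and 674 (0.86, SE 0.18). The ceramide enzymes *Degs1* and *Cers2* (listed under its older symbol *Lass2*) rose by 0.84 and 0.68. *Fa2h*, which hydroxylates the fatty acid of these lipids, had moved a step earlier: it was at 12.3 FPKM on Day 0, at 73.3 and 106 on Day 1 and at 93.2 and 120 on Day 2, and the middle step was smaller than the first by the test of the difference (adjusted p = 0.0368).

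Cholesterol synthesis genes did not share these rises. Of the 21, 0 rose and 1 fell from Day 1 to Day 2, and the median log2 fold change was -0.54 (-0.35 with median ratio scaling) after 1.29 in the first step. *Hmgcs1*, an early enzyme of the pathway, was at 831 and 1061 FPKM on Day 1 and at 597 and 682 on Day 2 (adjusted p = 0.0943). Both Day 2 libraries were below both of Day 1 in 14 of the 21 genes, as in 37.6% of all genes. *Dhcr7*, which makes the last reduction to cholesterol, fell from 135 and 166 to 75.5 and 91.2 FPKM (-0.84, SE 0.16, adjusted p = 0.0334; 0.0867 with median ratio scaling). With the replicate block 5 genes fell, namely *Dhcr7*, *Lss*, *Fdps*, *Nsdhl* and *Idi1*, and 1 rose, *Hsd17b7*, which went from 61.5 and 76.4 to 104 and 135 FPKM.

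Whether the middle step differed from the first was tested gene by gene, a test that a slower rise can pass as well as a reversal. The Day 1 libraries enter both steps, as the start of the middle and the end of the first. Over all genes the middle step exceeded the first in 84 (0.688% of those tested) and was below it in 44 (0.36%), and 8 of the 44 were cholesterol genes, among them *Hmgcs1*, *Fdps*, *Fdft1*, *Lss*, *Msmo1*, *Nsdhl* and *Dhcr7*. With the replicate block the difference passed for 369 genes and for 15 of the cholesterol list. These counts rested on single libraries, since leaving out either library of Day 0, Day 1 replicate 2 or either library of Day 2 left 0 cholesterol genes, and leaving out Day 1 replicate 1 left 9. In the fatty acid list 1 of 18 genes rose and 2 fell. The falls were those of enzymes that make acetyl-CoA, *Acss2* from 44.0 and 58.0 to 18.0 and 24.4 FPKM (-1.23, SE 0.21) and *Acly* from 181 and 193 to 112 and 128 (-0.64, SE 0.13). Neither passed with median ratio scaling (adjusted p = 0.0501 and 0.16). The elongase *Elovl7* rose from 42.9 and 40.1 to 73.8 and 75.1 (0.83, SE 0.14, adjusted p = 0.0228). Of the 13 tested genes of sterol control and uptake 1 fell and 0 rose: *Stard4*, which carries sterols through the cytosol, went from 36.9 and 46.1 to 19 and 16.1 FPKM (-1.19, SE 0.22, adjusted p = 0.0304).

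**Figure D4:**
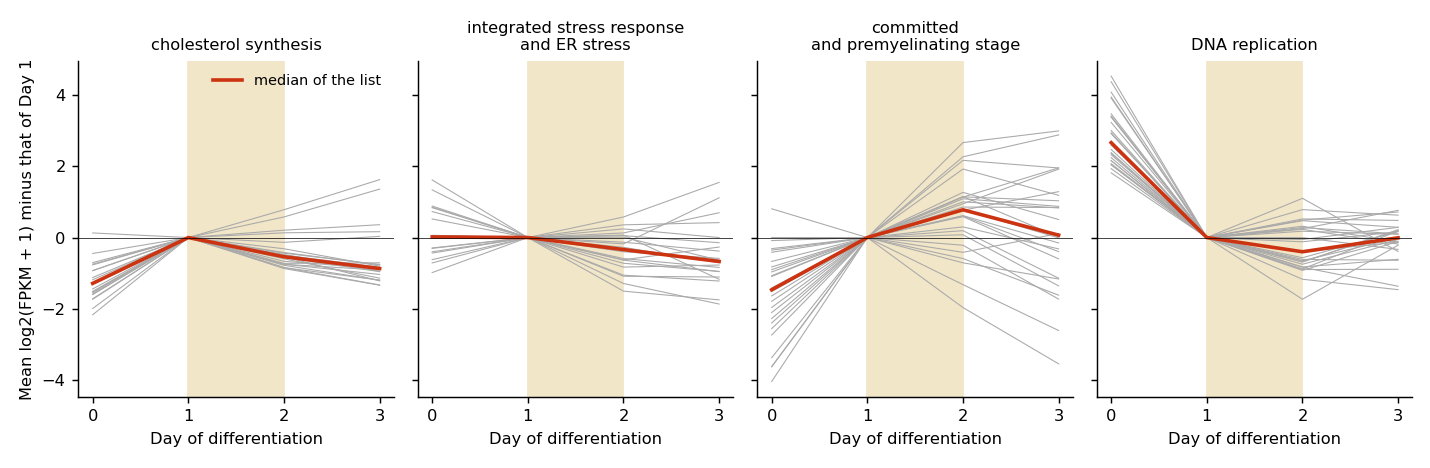
Mean log2(FPKM + 1) of each list member minus its Day 1 value (y axis) on each day (x axis), a grey line per gene and the list's median in red, with the middle step shaded. The cholesterol median changed by 1.29 before Day 1 and by -0.54 after it, that of the committed stage by 1.46 and 0.78, and that of DNA replication by -2.66 and -0.40.

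The list of the integrated stress response and of stress of the endoplasmic reticulum (ER) held 20 genes. Of these, 4 fell and 0 rose (5 and 0 with the replicate block), with a median of -0.34. The 4 encode ER folding factors, while other such members of the list were not called, such as *Dnajb9* at 13.1 and 13.4 and then 17.6 and 16.9 FPKM, and *Sdf2l1* at 31.6 and 24.7 and then 20.7 and 31.2. *Hspa5*, the main ER chaperone, went from 215 and 229 FPKM to 109 and 99.3 (-1.08, SE 0.12, adjusted p = 0.00707). The disulfide isomerases *Pdia6* and *Pdia4* went from 100 and 117 to 55.6 and 47.7 and from 83.8 and 78.5 to 48.6 and 49.0, and *Creld2*, a further ER-resident factor, from 35.9 and 48.7 to 15 and 18.2 (-1.29, SE 0.19, adjusted p = 0.0159). *Pdia4* did not pass with median ratio scaling (adjusted p = 0.0582). For *Hspa5* and *Creld2* the middle step was below the first by the test of the difference (adjusted p = 0.0298 and 0.041). *Atf4* and its targets in amino acid supply were not called, for example *Atf4* at 58.6 and 89.8 and then 72.8 and 77.9 FPKM, *Psat1* at 245 and 245 and then 245 and 248, and *Asns* at 17.8 and 24.8 and then 20.9 and 23.4.

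The promoters of 3 of the 4 genes that fell hold a full ER stress response element, the composite site at which unfolded protein response factors bind beside NF-Y. The element was searched as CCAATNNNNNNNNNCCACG on both strands in RefSeq promoters (GRCm38.p6), which run from 250 bases before to 50 after each start, a search chosen after the values had been seen. It occurred in 3 of the 20 genes of the stress list (*Hspa5*, *Pdia6* and *Creld2*) and in 0.137% of the 26994 genes with a promoter. It occurred in 0.179% of the 8945 tested genes with a promoter. The list was written to hold genes of ER stress, so that its excess over all genes was in part built in. A link between the element and the falls was not tested. The shorter NF-Y letters CCAAT, which are part of the element, occurred in 15 of the 20 and in 41.0% of all. The stretches around the element are shown because they belong to the genes that fell, with the element in capitals, each read 5′ to 3′ on the strand of its gene. In *Creld2* the element lies on the other strand, so that the capitals read as its reverse complement.
*Hspa5* (chr2:34772005-34772063, plus strand): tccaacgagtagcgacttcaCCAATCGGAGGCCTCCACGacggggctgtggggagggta
*Pdia6* (chr12:17266471-17266529, plus strand): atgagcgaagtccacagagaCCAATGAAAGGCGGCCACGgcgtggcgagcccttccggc
*Creld2* (chr15:88819500-88819558, plus strand): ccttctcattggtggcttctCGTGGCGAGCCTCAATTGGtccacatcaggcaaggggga

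The element ended 46 bases before the start in *Hspa5*, 79 in *Pdia6* and 107 in *Creld2*. Promoters were matched for 16 of the 21 cholesterol genes and for 6 of the 8 compact myelin genes, too few for a share over those lists.

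Of the 18 transcription factors of the OL lineage tested, 3 rose and 1 fell. *Myrf*, the factor that switches on myelin genes (listed under its older symbol *Gm98*), went from 149 and 212 FPKM to 302 and 387 (0.94, SE 0.19, adjusted p = 0.0402). *Zfp536* and *St18*, zinc finger proteins, rose by 2.07 and 1.30, from 2.96 and 1.06 to 9.86 and 12.3 FPKM and from 3 and 4.24 to 11.5 and 9.21. *Nkx2-2*, a factor of early differentiation, fell from 170 and 214 to 53.2 and 36.1 (-2.09, SE 0.30, adjusted p = 0.0141), having been at a mean of 59.4 on Day 0. Its middle step was below its first by the test of the difference (adjusted p = 0.0298). The factors that define the lineage were not called: *Olig2* was at 190 and 167 FPKM and then at 143 and 165 (-0.21, SE 0.15), and *Sox10* at 579 and 563 and then at 476 and 506. *Tcf7l2*, a Wnt effector that the study follows, was at 84.2 and 92.0 and then at 96.7 and 95.4 (0.12, SE 0.22, adjusted p = 0.769).

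Of the 20 inhibitors of differentiation, 0 rose and 1 fell, with a median of -0.61. *Notch1*, the receptor that keeps OPCs undifferentiated, went from 67.0 and 48.0 to 26.0 and 14 FPKM (-1.52, SE 0.29, adjusted p = 0.0336). With the replicate block 6 of the list fell, among them *Id3*, which went from 222 to 90.5 in replicate 1 and from 159 to 63.8 in replicate 2, and *Id2*, from 133 to 63.9 and from 61.5 to 35.4. *Bmp4*, a secreted inhibitor of OL maturation, was at 61.3 and 83.1 FPKM on Day 1 and at 30.9 and 9.79 on Day 2 (-1.96, SE 0.58, adjusted p = 0.103; 0.0436 with the block). From 4.86 FPKM on Day 0 it had come up in the first step, and the difference between its steps, -5.59 on the log2 scale, was the most negative of all called genes (adjusted p = 0.0491).

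Of the 29 genes of progenitor identity, 6 fell and 0 rose (7 and 0 with the replicate block), with a median of -0.69. *Pcdh15*, a protocadherin of OPCs, went from 11.9 and 8.17 FPKM to 2.44 and 0.412 (-2.31, SE 0.44, adjusted p = 0.0332). *Dpysl3*, a phosphoprotein of growth cones, went from 256 and 171 to 60.5 and 37.8 (-2.11, SE 0.30), and the adaptor *Pid1* from 30.0 and 33.4 to 6.16 and 5.91 (-2.21, SE 0.23). The chondroitin sulfate proteoglycans *Ncan* and *Ptprz1* fell by 1.17 and 1.33 on the log2 scale, *Ptprz1* from 138 and 111 to 59.1 and 39.7 FPKM. The cysteine dioxygenase *Cdo1* completed the 6, from 7.99 and 4.09 to 1.07 and 1.47, and did not pass with median ratio scaling (adjusted p = 0.0604), which left 5 falls. *Pdgfra*, the receptor by which the cells had been selected, did not pass because its replicates lay far apart, at 78.2 and 11.2 FPKM on Day 1 and 28.8 and 5.39 on Day 2 (-1.17, SE 1.00, adjusted p = 0.528). *Tnr*, an OPC gene, stayed high, at 289 and 308 and then 400 and 278 FPKM. *Bcan*, another, was higher on Day 2, at 265 and 334 after 167 and 172.

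The list of the committed and premyelinating stage had 10 rises and 0 falls among 26 genes (11 and 1 with the block), with a median of 0.78 in the middle step and -0.68 in the last. *Rras2*, a small GTPase, went from 6.81 and 9.28 FPKM to 45.8 and 68.0 (2.67, SE 0.24, adjusted p = 0.0033). *Frmd4a*, a scaffold protein of cell polarity, went from 30.2 and 28.6 to 130 and 141 (2.17, SE 0.20), and *Tmem163*, a zinc transporter, from 53.8 and 81.4 to 242 and 266 (1.92, SE 0.25). The Rac-GTPase activating *Chn2* rose from 89.4 and 97.9 to 258 and 199, and the choline transporter *Slc44a1* from 133 and 150 to 319 and 307. *Fam107b* rose from 12.4 and 12.2 to 43.0 and 91.9 (2.27, SE 0.31), and *Ugt8a*, which stands in this list too, together with *Arpc1b*, *Rap2a* and *Gng12* made up the 10. *Ust*, a sulfotransferase of chondroitin and dermatan sulfate, had reached its level earlier, at 43.8 and 77.9 FPKM on Day 1 and 55.0 and 45.8 on Day 2 after 3.88 on Day 0, and the middle step was smaller than the first (difference -3.84, adjusted p = 0.041).

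**Figure D5:**
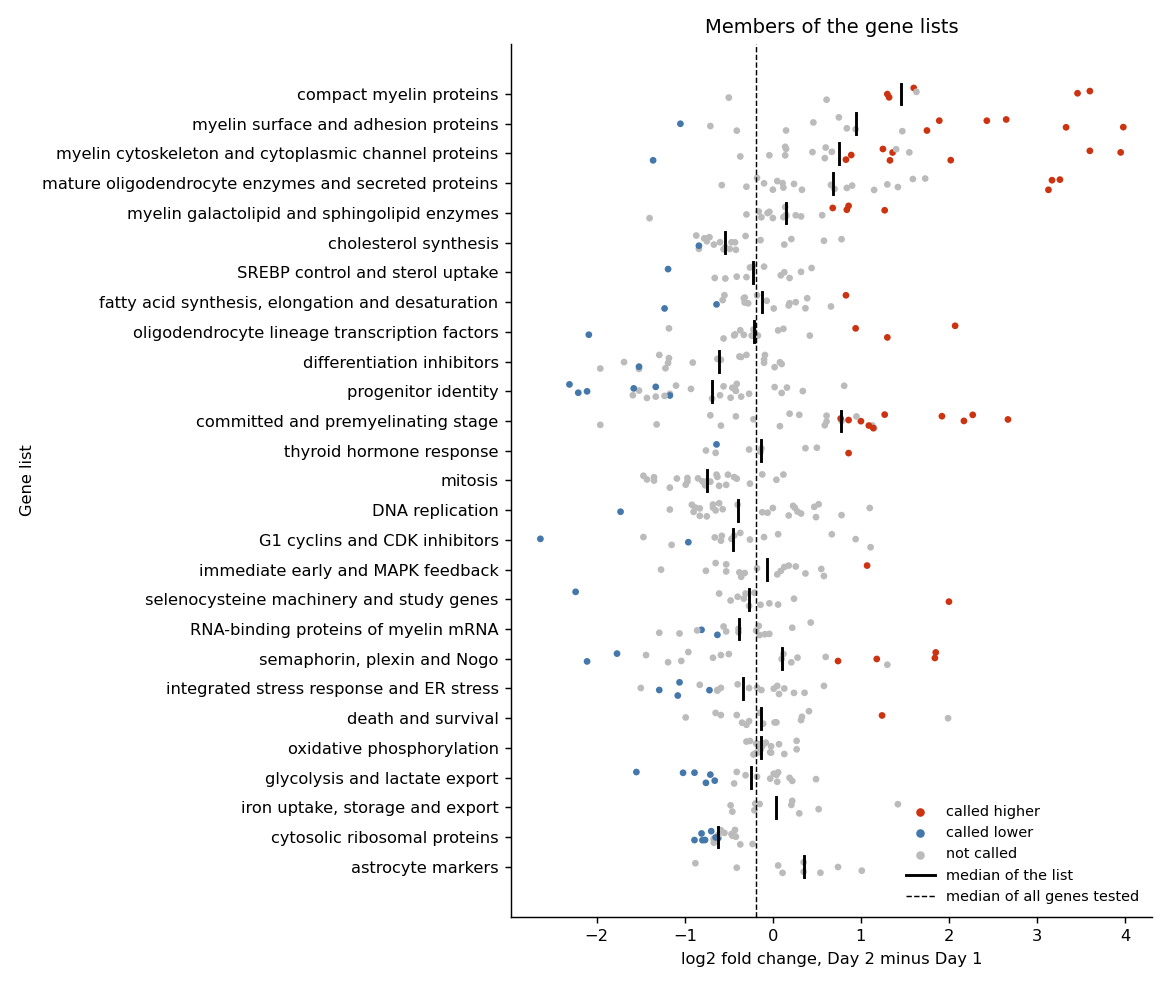
Log2 fold change from Day 1 to Day 2 (x axis) of every tested member of the gene lists with 8 or more tested members (y axis), called members in red or blue, black bars for list medians and a dashed line for the median of all genes at -0.19. The 3 lists of myelin proteins and the committed stage have medians of 0.75 to 1.46, and the progenitor list and the ribosomal proteins lie at -0.69 and -0.62.

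The largest rises also held genes outside these lists. *Rgs16*, which ends G protein signals, went from 1.40 and 0 FPKM to 15.5 and 23.5 (3.70, SE 0.47, adjusted p = 0.0103). *Ripk2*, a kinase of innate immune receptors, went from 3.86 and 2.06 to 38.4 and 55.3 (3.61, SE 0.35), and *Tmem2*, a hyaluronidase of the cell surface, from 5.2 and 2.26 to 40.1 and 70.2 (3.59, SE 0.38). The Day 3 means of these 3 genes, 11.9, 41.4 and 51.0 FPKM, were below their Day 2 means, which a choice by large rise favours. None of these last-step differences passed in limma (adjusted p = 0.57, 0.892 and 0.942). In *Ripk2* and *Tmem2* the libraries of Day 2 and Day 3 overlapped. *Ddc*, the aromatic amino acid decarboxylase, went from 3.75 and 8.40 to 62.1 and 96.0 (3.55, SE 0.57), and the exchange factor *Plekhg1* from 1.81 and 1.85 to 22.6 and 34.6 (3.36, SE 0.29). The LIM protein *Fhl3* went from 0.968 and 1.86 to 18.0 and 24.5, and *Lrrc16a*, a regulator of actin capping, from 1.90 and 3.79 to 18.6 and 58.2 (3.22 and 3.19). These 7 genes were chosen among called genes without overlap between the days, so their separation is no further result. In *Lrrc16a* the Day 2 libraries lay far apart.

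The largest fall was that of *H19* (chr7:142575529-142578143, minus strand), an imprinted noncoding RNA, from 560 and 1039 FPKM to 110 and 60.3 (-3.21, SE 0.52, adjusted p = 0.0197). *Ntm*, a GPI-anchored adhesion protein, went from 37.4 and 22.5 to 5.45 and 1.25 (-2.98, SE 0.49), the zinc finger gene *Zfp467* from 10.7 and 10.8 to 0.851 and 0.237 (-2.96, SE 0.37), and *3110035E14Rik* from 227 and 342 to 54.4 and 25.2 (-2.88, SE 0.48). All 4 had been lower on Day 0 than on Day 1, at means of 569, 17.4, 4.61 and 145 FPKM. A choice by the largest fall favours genes with a high Day 1, so this is in part built in. None of these first-step differences passed in limma (adjusted p = 0.643, 0.398, 0.105 and 0.253), and the *H19* libraries of Day 0 and Day 1 overlapped. The cytokine gene *Il17d* (-2.35), *Fam57b* (-2.34), *E130309F12Rik* (-2.33), the focal adhesion proteins *Lims2* (-2.21) and *Efs* (-2.15) together with *Pcdh15*, *Pid1*, *Cdk2* and *Gpx3* were also among the 15 largest falls. Exons of *Lims2* overlap those of the OPC gene *Gpr17* on the other strand, and *Il17d* did not pass with median ratio scaling (adjusted p = 0.0501). *Sprr2f*, one of a family of near-identical genes, and *Gm3219* were listed at 0 in both Day 2 libraries, after 5.35 and 2.57 and after 2.62 and 4.81 FPKM. These Day 1 values rest on an estimated 4 and 2 fragments for *Sprr2f* and 1 and 2 for *Gm3219*, and *Sprr2f* did not pass with median ratio scaling (adjusted p = 0.0561).

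Cell cycle genes had fallen in the first step and showed few calls in the middle one. Of the 25 mitosis genes 0 rose and 0 fell in limma (7 at an unadjusted p under 0.05, and *Ccnb2* fell with the replicate block), with a median of -0.75 after -4.33 from Day 0 to Day 1. *Mki67*, for example, was at a mean of 120 FPKM on Day 0, at 7.61 and 1.09 on Day 1 and at 0.896 and 0.447 on Day 2. Of the 27 DNA replication genes 1 fell and 0 rose, with a median of -0.40. It was the helicase subunit *Gins2*, from 3.14 and 3.77 to 0.791 and 0 FPKM, whose exons overlap those of *Gse1* on the other strand. Of 16 G1 cyclins, kinases and CDK inhibitors 2 fell (3 with the block, adding *Ccnd3*) and 0 rose. *Cdk2* (chr10:128697939-128705031, minus strand), the kinase of the G1/S transition, went from 19.1 and 8.68 FPKM to 2.03 and 0.656 (-2.64, SE 0.42, adjusted p = 0.0191) after 27.4 on Day 0. Exons of *Cdk2* overlap those of *Pmel* on the other strand by up to 34 bases. The CDK inhibitor *Cdkn1b* fell too, from 50.2 and 37.1 to 23.9 and 19.7 (-0.96, SE 0.20, adjusted p = 0.0406; 0.0765 with median ratio scaling). *Ccnd1*, the mitogen-driven cyclin, was not called, at 9.24 and 3.30 and then 4.76 and 3.17 FPKM (-0.44, SE 0.38).

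Of the 84 genes whose middle step exceeded the first, 80 had a lower mean on Day 1 than on Day 0. Since both steps use the Day 1 libraries, the test itself favours genes with a low Day 1, so this count is in part built in. Among the 84, 24 were genes that rose from Day 1 to Day 2. The 5 largest differences belonged to *Lpo* (4.98), *Nab2* (4.73), *Lig1* (4.70), *Asf1b* (4.66) and *Phlda1* (4.57). *Lig1*, a DNA ligase, was at 41.1 FPKM on Day 0, at 1.58 and 2.02 on Day 1 and at 3.72 and 3.89 on Day 2, which did not pass as a change of the middle step (adjusted p = 0.225). *Asf1b*, a histone chaperone of S phase, and *Nab2*, a repressor of Egr factors, were not called either. *Lpo*, a haem peroxidase, and *Phlda1* came back in part. *Lpo* went from 11.7 on Day 0 to 0.836 and 0.801 and then to 7.01 and 7.95 FPKM (2.22, SE 0.32), and *Phlda1* from 44.9 to 6.26 and 4.40 and then to 13.5 and 27.7 (1.70, SE 0.35). In the list of immediate early and MAPK feedback genes 1 of 18 rose and 0 fell (*Myc* fell with the block). *Jun*, the one that rose, encodes an immediate early transcription factor and was at 34.6 FPKM on Day 0, at 11.5 and 7.36 on Day 1 and at 18.3 and 22.9 on Day 2 (1.07, SE 0.22, adjusted p = 0.039). Of the 44 genes with a smaller middle than first step, all 44 had been higher on Day 1 than on Day 0, and 16 were among the falls. Here the test favours genes with a high Day 1 in the same way. The middle step minus the last gave 0 called genes in limma, with 1233 at an unadjusted p under 0.05.

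Among the genes that the study follows, *Secisbp2l* (chr2:125736986-125782870, minus strand), which encodes the SECIS-binding protein Sbp2l, was one of the steadiest rises. It was at 66.0 and 57.8 FPKM on Day 1 and at 207 and 300 on Day 2 (log2 fold change 2.00, SE 0.19, adjusted p = 0.0033), and passed in each of the 4 fits without a library of these days (1.73 to 2.26). Its paralog *Secisbp2*, which recodes UGA as selenocysteine, was at 13.4 and 14.8 and then at 13.0 and 14.4 FPKM (-0.04, SE 0.20). *Larp6*, an RNA-binding protein of the La family, did not reach 1 FPKM in these 4 libraries. *Gpx4*, the selenoprotein that repairs lipid peroxides, was at 155 and 123 and then at 157 and 132 FPKM (0.06, SE 0.23, adjusted p = 0.902). The member of the selenium list that fell was *Gpx3*, the secreted glutathione peroxidase, from 21 and 8.25 to 1.62 and 2.48 FPKM (-2.24, SE 0.41, adjusted p = 0.0294), and the remaining factors of selenocysteine synthesis were not called. With the replicate block 2 genes of the list fell, the second being *Gpx1* at 134 and 122 and then 91.7 and 75.3 FPKM.

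Of the 16 RNA-binding proteins that handle myelin mRNA, 0 rose and 2 fell (4 with the block). *Hnrnpa2b1*, which binds the transport signal of *Mbp* mRNA, went from 341 and 371 to 232 and 227 FPKM (-0.63, SE 0.14), and *Hnrnpa1* from 279 and 318 to 177 and 162 (-0.81, SE 0.16). Neither passed with median ratio scaling (adjusted p = 0.126 and 0.094). *Qk*, which stabilises myelin mRNA, was at 538 and 568 and then at 654 and 631 FPKM, without overlap and without a call (0.22, SE 0.13, adjusted p = 0.367).

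Guidance molecules moved in both directions, with 4 rises and 2 falls among 19. The semaphorins *Sema6a* and *Sema6d* went from 68.9 and 86.0 to 219 and 351 FPKM and from 25.4 and 30.1 to 76.0 and 138 (1.84 and 1.85), and *Sema4d*, which inhibits axon growth, from 28.3 and 46.4 to 72.0 and 96.6 (1.18, SE 0.25). *Rtn4*, the gene of Nogo, rose by 0.74. The receptor *Plxna3* fell from 14 and 14.5 to 5.08 and 2.27 FPKM (-1.77, SE 0.36, adjusted p = 0.037), and *Dpysl3*, which also relays semaphorin signals, is the other fall. With the block 5 rose and 4 fell.

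Among housekeeping classes, each of the 20 cytosolic ribosomal proteins had both Day 2 libraries below Day 1. Of these, 7 fell (10 with the replicate block), *Rplp0* the furthest, from 1049 and 803 to 525 and 468 FPKM (-0.89, SE 0.16, adjusted p = 0.0274). Both Day 2 libraries were below Day 1 in 37.6% of all genes too. The median of the list was -0.62 against -0.19 for all genes, and with median ratio scaling 1 gene of the list passed, *Rplp0*. Ribosomal proteins have many processed pseudogenes, to which reads could have been shared. Of the 18 genes of glycolysis, 6 fell and 0 rose: *Ldhb* from 98.6 and 71.5 to 37.5 and 21 FPKM (-1.55, SE 0.29), *Pfkm* (-1.02), *Hk1* (-0.89), *Eno1* (-0.76), *Pkm* (-0.71) and *Ldha* (-0.66). With median ratio scaling 2 fell, *Ldhb* and *Hk1*, and 1 rose, *Pgk1*, which was at 212 and 192 and then at 279 and 290 FPKM. *Gapdh* was at 617 and 687 and then at 636 and 725. Of the 20 subunits of oxidative phosphorylation 0 were called in limma in either direction (0 at an unadjusted p under 0.05), with the replicate block or with median ratio scaling, and their median was -0.13, above that of all genes.

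Smaller lists held single calls. In the thyroid hormone list, with 1 rise and 1 fall among 9 tested genes, *Klf9*, a T3-induced factor, rose from 20.7 and 17.3 to 40.3 and 30.6 FPKM (0.86, SE 0.19, adjusted p = 0.047), and the corepressor *Ncor1* fell from 55.5 and 58.6 to 36.9 and 35.6 (-0.64, SE 0.13), though not with median ratio scaling (adjusted p = 0.101). The receptor gene *Thra* was at 120 and 182 and then at 163 and 226. In the list of cell death and survival, with 1 rise and 0 falls among 16 genes, *Tfeb*, the lysosomal regulator that gates OL survival, rose from 14.5 and 19.5 to 39.1 and 43.2 FPKM (1.24, SE 0.24, adjusted p = 0.0345). With the replicate block *Bbc3*, the proapoptotic gene known as Puma, rose as well, from 1.65 to 4.57 FPKM in replicate 1 and from 0.791 to 12.5 in replicate 2 (adjusted p = 0.105 without the block and 0.0429 with it). Of the 10 tested genes of iron handling 0 were called in limma (1 at an unadjusted p under 0.05), with or without the block.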

How the data were processed

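Stranded mRNA-seq libraries of primary OPC cultures were made of 4 time points (Day 0 to Day 3), each with 2 replicates. The authors processed the reads in OmicSoft ArrayStudio, with mm10 (GRCm38) as the genome build per the labels, and deposited 1 table of FPKM values, with 23427 gene symbols. The aligner, the gene models and the use of strand in counting are not given in the sources used here. No read counts were used here, so that a count test could not be run. Depth was estimated from the spacing of low FPKM values at 950000 to 1530000 fragments (55.3% to 63.4% of low values lay within 0.05 of a whole fragment). A rise or fall in FPKM is relative to the rest of a library.

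Values were taken as log2(FPKM + 1) for genes at 1 FPKM or more in 2 or more of the 8 libraries, so a fold change of a low gene is understated. One linear model with day as a factor of 4 levels was fitted to all 8 libraries with limma 3.58.1 in R 4.3.3 (eBayes with a trend on expression, two-sided, Benjamini-Hochberg over 12208 genes), and genes at an adjusted p under 0.05 were called. The contrast of 2 steps was tested in the same model. The script was tested on simulated data. P-values measure the spread between these libraries, since each day has 2. Replicate numbers in the labels were taken to pair the libraries: in each of the 6 pairs of days, same-numbered libraries deviated together (r between 0.16 and 0.29, so over 0.1 throughout). Calls are from the fit without a block unless stated. The fit with the replicate number as a block is given where it changed a list's count of rises or falls. It is also given where it changed the call of a gene that the rule below names.

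The genes named were the 15 largest rises and falls among called genes without overlap, up to 6 called members of each list, genes that the study shows, and the 5 largest differences between steps in each direction. Members of the lists that were not called were chosen as examples after their values were seen. The gene lists were written from general knowledge with earlier results of these data known, and 6 older symbols (such as Gm98 for Myrf, Sc4mol for Msmo1 and Lass2 for Cers2) were matched after the table was seen. Coordinates are those of GENCODE M21 on GRCm38, which matched 21392 symbols. 22 symbols lay on more than 1 chromosome, and 8160 were at 0 in every library. Overlaps were looked up for the genes that the rule names. Apart from those marked in the text, exons of Acss2, Arpc1b, Bin1, Bmp4, Ccnd1, Chn2, Fam57b, Frmd4a, Gng12, Hk1, Jun, Lig1, Nab2, Ncor1, Nkx2-2, Notch1, Pdgfra, Pdia6, Pfkm, Phlda1, Rgs16, Rpl18, Rtn4, Sirt2, Slc44a1, Tmem163 and Tspan2 overlap those of genes on the other strand, so their values are uncertain where strand was not used. Mobp, Pfkm and Sept4 overlap a gene on their own strand and are uncertain in any case. Some genes are not reported here.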

Additional observations from a re-analysis of the deposited data

How the results depend on the processing

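Each result was recomputed with another pseudocount, filter, scaling, set of samples, spread model or the replicate block, and without each library in turn, where a day with a lone library was assumed to vary like the others. Calls rested on the spread shared over the 4 days: with Day 1 and Day 2 alone 0 genes were called in either direction, also in every list, although 2364 had an unadjusted p under 0.05 (smallest adjusted p = 0.0778). Rises numbered 154 with no filter and 82 without the trend, and 11 to 221 with a library left out. Falls numbered 93 with no filter, 104 with median ratio scaling, 131 with quantile normalization, 39 without the trend, and 0 to 224 with a library left out. With the replicate block, which pairs the libraries, there were 436 falls, 369 differences between the middle and first step, and 15 among cholesterol genes. Of the 110 genes named by the rule it changed 1 call, that of Bmp4. It also changed calls of other list members, many of which are given with their lists. The 128 differences became 45 with a pseudocount of 0.1, 16 with no filter, 212 with quantile normalization, 51 without the trend and 0 to 116 with a library left out. Middle minus last gave 0 to 2. Without the trend the lists had 1 compact myelin, 2 surface, 2 cytoskeleton and 4 committed rises, 1 progenitor, 1 stress and 0 ribosomal falls and 0 cholesterol differences. With no filter there were 3 compact myelin and 4 cytoskeleton rises, 0 ribosomal falls and 0 cholesterol differences, and with quantile normalization 3 compact myelin and 5 cytoskeleton rises. Median ratio scaling left 1 ribosomal fall and 5 cholesterol differences, and a pseudocount of 0.1 left 5. With a library left out, compact myelin had 1 to 5 rises, surface 0 to 6, cytoskeleton 1 to 8 and committed 1 to 9. Progenitor genes then had 0 to 7 falls, stress 0 to 5, ribosomal 0 to 6, and cholesterol 0 to 9 differences. The compact myelin sum then made 33.0% to 50.6% of its gain in the middle step. Genes without a call changed sign: Secisbp2 was at 0.15 with median ratio scaling, 0.13 with quantile normalization, 0.02 without Day 1 replicate 2 and 0.03 without Day 2 replicate 1. With a library left out, Ccnd1 ranged from -1.06 to 0.19 and Pdgfra from -2.52 to 0.18 (both highest without Day 1 replicate 1), Gpx4 from -0.11 to 0.23 and Ust from -0.63 to 0.19. Larp6 ranged from -0.76 to 0.22. The remaining values of these 110 genes kept their direction. At this depth and with 2 libraries a day, small changes of low genes were not detectable.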
